A study of Mus musculus with 40 samples.

Results

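The 6 epithelial keratin genes Krt7, Krt8, Krt18, Krt19, Krt20, and Krt23 were chosen by name from the 55487 genes of the count table, and their transcripts were followed in the liver of WT mice and of mice that lack Nampt in hepatocytes (HNKO). The shared pair Krt8 and Krt18 was transcribed at high level in all livers and was higher in HNKO, on average over the days of feeding by 1.99-fold for Krt8 and 1.71-fold for Krt18. The duct keratins Krt7 and Krt19 were present at low level and were higher by 2.99-fold and 3.16-fold. The size for Krt19 depended on HNKO library 35 of day 12. Its average log2 fold change was 1.66 with this library and 1.19 without it. For Krt23, no difference was called on average (1.01-fold), and Krt20 was close to absent, with 23 counts in 38 libraries.

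Keratins form the intermediate filaments of epithelial cells, in which a type II keratin such as Krt8 or Krt7 is always joined to a type I keratin such as Krt18 or Krt19. Hepatocytes of the adult liver build their filaments from Krt8 and Krt18, whereas the cholangiocytes that line the bile ducts carry Krt7 and Krt19 as well, so that these 2 genes serve as duct markers in histology. Krt20 is a keratin of intestinal epithelium and urothelium, and Krt23 is a type I keratin known as stress-inducible in mouse liver.

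All mice were young adult females on the C57BL/6JBomTac background and were given a purified diet (PD) before the liver was taken (without a part of the median lobe), with feeding times of 3, 6, 12, and 21 days. HNKO mice were Nampt fl/fl with Alb-Cre+/−, in which the albumin promoter drives the recombinase in hepatocytes, and WT mice were floxed littermates. Whether the cells of bile ducts kept the gene was not tested. The labels give the numbers of days as an age, and the days of feeding stated in the methods are used here. Each of the 40 libraries came from the liver of 1 mouse. Libraries 17 and 18 of HNKO at day 21 are described as having failed quality control, and the results are over the other 38, with 5 WT and 5 HNKO at day 3, 4 and 5 at day 6, 5 and 6 at day 12, and 5 and 3 at day 21.

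The counts of these libraries summed to between 16151037 and 64181492 fragments on genes (median 26466478.5). Levels are log2 CPM (counts scaled to a common library total) after TMM scaling, with a prior count of 2. Genotypes were compared with edgeR's quasi-likelihood test on 20297 genes that passed a filter on low counts, and a gene was called at a Benjamini-Hochberg adjusted p under 0.05. Of the 6 keratins, 5 passed this filter and Krt20 did not. Nampt was called lower in HNKO at days 3, 6, and 12 (adjusted p = 0.0193, 0.0128, and 0.0208, edgeR) and missed the threshold at day 21 (adjusted p = 0.161). In whole liver, a change in the share of a cell type and a change in RNA per cell cannot be told apart. Of 6 transcripts of pancreatic acinar cells, 5 (Cpa1, Prss2, Pnlip, Ctrb1, and Cel) summed to 455 counts in HNKO library 23, 385 in HNKO library 35, 121 in HNKO library 11, and 42 in HNKO library 13, against at most 18 in any other library. The sixth, Cela1, had 14960 counts over all libraries and did not set these 4 apart, so that with it library 23 ranked 1st, library 35 6th, library 11 16th, and library 13 34th of 38 for the summed CPM. Without these 4 libraries, Nampt was called lower at day 6 (log2 fold change -0.88, adjusted p = 0.0182, edgeR) and missed the threshold at days 3, 12, and 21, with -0.94, -0.73, and -0.66 (adjusted p = 0.0526, 0.204, and 0.184). The results on keratins are given with and without these 4 libraries.

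In GRCm38, Krt7 (ENSMUSG00000023039.17), Krt8 (ENSMUSG00000049382.10), and Krt18 (ENSMUSG00000023043.7) lie on chromosome 15, and Krt19 (ENSMUSG00000020911.14), Krt20 (ENSMUSG00000035775.2), and Krt23 (ENSMUSG00000006777.7) lie on chromosome 11. Krt8 (101996698 to 102004482, minus strand) and Krt18 (102028180 to 102032027, plus strand) are 23.7 kb apart, although 1 is a type II and the other a type I gene. Krt7 extends from 101411043 to 101430313 on the plus strand, at a distance of 566 kb from Krt8. On chromosome 11, all 3 genes are on the minus strand, with Krt20 from 99428403 to 99438150, Krt23 from 99477974 to 99493137, and Krt19 from 100140810 to 100148665. The end of the rod domain, the part by which keratins coil around each other, is the most conserved stretch of the family. It is shown for 5 of the genes to let the reader see how far their transcripts can be told apart by reads of 51 bases. Each sequence is the coding strand 5′ to 3′ in GENCODE release M21 of GRCm38, lies within 1 coding exon, and has in capitals the 21 bases that code for the conserved last residues of the rod.
Krt7, exon 7 of 9, chr15:101423426-101423476, plus strand: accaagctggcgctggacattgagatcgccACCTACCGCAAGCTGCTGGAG
Krt18, exon 6 of 7, chr15:102031452-102031502, plus strand: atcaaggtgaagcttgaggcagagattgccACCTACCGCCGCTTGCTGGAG
Krt19, exon 6 of 6, chr11:100140961-100141011, minus strand: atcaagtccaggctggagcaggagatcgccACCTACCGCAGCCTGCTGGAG
Krt20, exon 6 of 8, chr11:99430767-99430817, minus strand: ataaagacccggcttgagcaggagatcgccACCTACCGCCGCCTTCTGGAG
Krt23, exon 6 of 8, chr11:99480896-99480946, minus strand: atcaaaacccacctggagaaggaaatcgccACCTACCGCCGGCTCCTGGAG
Of the sequences shown, those of the type I genes Krt19 and Krt20 are the closest and differ at 6 of 51 positions. Those of the type II gene Krt7 and the type I gene Krt20 are the farthest apart, with 16. Over whole transcripts, the share of stretches of 51 bases that also occur in transcripts of other genes was 0% for Krt19, Krt20, and Krt23, 0.282% for Krt7, and 0.577% for Krt18. It was 26.7% for Krt8, all of it shared with the pseudogene Krt8-ps, which had a median of 5 counts per library, and how the reads were split between both is uncertain. Krt7 and Krt8 each overlap a gene on the opposite strand (Gm671 and Gm36026, both with a median of 1 count).

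Per kb of exon, the keratins of the liver covered a wide range of levels. In WT livers, Krt18 was at 6.69 ± 0.20 (SD, n = 19) and Krt8 at 5.62 ± 0.22 on a log2 CPM per kb scale, followed by Krt23 at 0.95 ± 0.82 and Krt19 at -0.99 ± 0.72. Krt7 was lowest of the 5 tested genes with -3.24 ± 0.68, but its annotated exons sum to 7049 bases. Per kb of coding sequence (1371 bases), Krt7 was at -0.88 ± 0.68 and Krt19 at -0.37 ± 0.72, a difference smaller than the SD of either. The other steps in the order of WT levels were larger than these SDs. In HNKO livers, Krt18 (7.44 ± 0.41, SD, n = 19) and Krt8 (6.56 ± 0.45) again led the order per kb of exon. Krt23 (0.78 ± 1.02) and Krt19 (0.43 ± 1.13) were then closer to each other than their SDs. Together, Krt8 and Krt18 made up 95.2% to 99.2% of the counts per kb of the 6 keratins in WT livers (median 98.6%) and 89.3% to 99.3% in HNKO (median 98.9%).

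Krt8, the type II partner in the filaments of hepatocytes, was higher in HNKO at every day. At day 3, its level was 6.23, 6.61, 6.65, 6.71, and 6.89 log2 CPM in the WT livers and 6.89, 7.08, 7.63, 7.67, and 7.76 in HNKO. At day 6, the WT livers had 6.46, 6.55, 6.59, and 6.69 and the HNKO livers 6.92, 7.35, 7.80, 8.04, and 8.63. The lowest HNKO liver of day 3 was level with the highest WT liver, whereas at day 6 the genotypes were separate and HNKO library 29 was the highest of all. At day 12, the WT livers had 6.21, 6.43, 6.46, 6.52, and 6.85, and the 6 HNKO livers ranged from 6.84 to 7.76 with a median of 7.55. At day 21, the levels were 6.30, 6.62, 6.74, 6.81, and 6.99 in WT and 7.29, 7.44, and 8.05 in HNKO. Only HNKO library 32 of day 12 lay within the WT range, by a small margin, and the groups of day 21 did not overlap. In the order of days, the log2 fold changes of Krt8 were 0.81, 1.29, 0.95, and 0.92, with standard errors of 0.22, 0.24, 0.21, and 0.25, and edgeR gave adjusted p of 0.0282, 0.000547, 0.00704, and 0.0331. Exact permutation tests of the difference in mean level gave p = 0.0159, 0.0159, 0.00649, and 0.0179 (two-sided), where 0.0179 is the smallest p that 3 against 5 livers allow. The calls of days 3 and 21 were close to the threshold. At day 3, the call was lost without any 1 of WT libraries 5, 24, and 25 or HNKO libraries 2, 3, and 23, with log2 fold changes of 0.73 to 0.82 and adjusted p up to 0.0940 (edgeR). At day 21, it was lost without WT library 19, 20, or 41 or HNKO library 37, with log2 fold changes of 0.68 to 0.95 and adjusted p up to 0.488 (edgeR). The calls over all genes also fell in these fits. They went from 945 to between 322 and 535 at day 3, and from 634 to between 13 and 387 at day 21.

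Krt18, the type I partner of Krt8, was higher in HNKO with smaller differences. Its level at day 3 was 6.86, 7.16, 7.45, 7.49, and 7.54 log2 CPM in WT and 7.48, 7.61, 8.01, 8.10, and 8.13 in HNKO livers, so that only HNKO library 22 lay within the WT range. At day 6, it was 7.19, 7.21, 7.37, and 7.39 in WT and 7.77, 7.84, 8.37, 8.49, and 8.91 in HNKO, without overlap. At day 12, the WT livers had 6.91, 7.15, 7.18, 7.24, and 7.29, and the HNKO livers ranged from 7.18 to 8.20 (median 7.96). Here the lowest HNKO liver, again library 32, lay within the WT range. At day 21, the levels were 6.80, 7.03, 7.24, 7.25, and 7.36 in WT and 7.63, 7.84, and 8.27 in HNKO, without overlap. The log2 fold changes of days 6, 12, and 21 were 1.04, 0.68, and 0.79, with standard errors of 0.20, 0.18, and 0.21 and adjusted p of 0.000871, 0.0186, and 0.0338 in edgeR. At day 3, it was 0.57 (SE 0.19) and missed the threshold (adjusted p = 0.0687, edgeR), but DESeq2 called it (adjusted p = 0.0465) and so did edgeR without HNKO library 4 or 22. The exact permutation p of day 3 was 0.0238, with 4 of 5 HNKO livers above all WT livers. The call of day 21 was lost without WT library 19, 20, 21, or 39 or HNKO library 37 (log2 fold change 0.60 to 0.81, adjusted p up to 0.476, edgeR). Over all genes, the calls of day 21 also fell in these fits, from 634 to between 13 and 599. Those of day 3 rose from 945 to 1473 without HNKO library 4 and to 1668 without HNKO library 22.

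Krt7, the type II keratin of bile ducts, had between 5 and 175 counts per library. At day 3, its level was -0.74, -0.58, -0.07, 0.04, and 0.38 log2 CPM in WT and 0.26, 0.58, 0.67, 1.56, and 2.49 in HNKO livers. At day 6, it was -1.29, -0.84, -0.65, and 0.15 in WT and 0.67, 0.83, 1.34, 1.41, and 2.05 in HNKO. The genotypes were thus separate at day 6 and overlapped by 1 HNKO liver at day 3. At day 12, WT livers had -0.62, -0.35, 0.19, 0.64, and 0.79, and HNKO livers ranged from 0.15 to 2.42 (median 1.0), with 3 of 6 above all WT livers. At day 21, the levels were -1.90, -0.98, -0.96, -0.80, and -0.45 in WT and 0.23, 0.54, and 0.78 in HNKO, again without overlap. Krt7 was called at days 3 and 6 (log2 fold changes 1.56 and 2.02, edgeR adjusted p = 0.0319 and 0.00531), and exact permutation tests of the 4 days, in order, gave p = 0.0159, 0.00794, 0.0649, and 0.0179. Its log2 fold change at day 12 was 1.13 (SE 0.40, adjusted p = 0.0750, edgeR), and leaving out library 36 gave a call (1.29, adjusted p = 0.0428) whereas leaving out library 35 moved it to 0.75 (adjusted p = 0.245). At day 3 the call was lost without WT library 5, 24, or 25 or HNKO library 2 or 23 (log2 fold change 1.02 to 1.6, adjusted p up to 0.199, edgeR), and also with all 40 libraries (adjusted p = 0.0965) and in a fit of only the 2 groups of that day (adjusted p = 0.0807). In all these fits, the calls over all genes at day 3 also fell, from 945 to between 322 and 535. Krt7 missed the threshold at day 21 with a log2 fold change of 1.6, a standard error of 0.50, and an adjusted p of 0.0691 in edgeR, and was called there by DESeq2 (adjusted p = 0.0364), by edgeR in the fit of only that day (adjusted p = 0.0297), with the series of library numbers as a covariate (adjusted p = 0.0455), and without libraries 11, 13, 23, and 35 (adjusted p = 0.0499).

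Krt19, the type I keratin of bile ducts, had 8 to 1251 counts per library. Its level at day 3 was -0.50, -0.35, -0.17, 0.99, and 1.26 log2 CPM in WT and 0.29, 0.53, 1.33, 1.45, and 1.56 in HNKO. At day 6, it was -1.11, -0.90, -0.16, and 0.10 in WT and 0.88, 1.28, 1.43, 1.96, and 2.12 in HNKO. The genotypes overlapped at day 3 and were separate at day 6. At day 12, the WT livers had -0.49, -0.35, 0.30, 0.48, and 1.46, and the HNKO livers ranged from 0.28 to 5.33 with a median of 1.37. At day 21, the levels were -0.88, -0.88, -0.30, -0.15, and -0.13 in WT and 0.12, 0.40, and 0.94 in HNKO. The groups of day 21 did not overlap, and at day 12 only 3 of 6 HNKO livers were above all WT livers. The value of 5.33 belongs to library 35, with 1251 counts of Krt19, whereas the other 5 HNKO livers of that day had at most 1.70. The log2 fold change at day 12 was 2.74 (SE 0.65, adjusted p = 0.0101, edgeR) with library 35 and 0.82 (adjusted p = 0.185) without it, and a fit of only the 2 groups of that day did not call it (adjusted p = 0.110). Krt19 was not called at days 3, 6, and 21, where the log2 fold changes were 0.68, 2.15, and 1.07, with standard errors of 0.66, 0.77, and 0.79 and edgeR adjusted p of 0.60, 0.0601, and 0.518. With all 40 libraries, the log2 fold change of day 21 was 2.25 (adjusted p = 0.0567, edgeR). At day 6, all 5 HNKO livers were higher (exact permutation p = 0.00794, the smallest possible), and a fit of only the 2 groups of that day called it (adjusted p = 0.00982, edgeR), as did DESeq2 (adjusted p = 0.0227). Leaving out libraries 11, 13, 23, and 35 together also called day 6 (log2 fold change 2.17, adjusted p = 0.00144, edgeR). The average over days was called with all 38 libraries (1.66, SE 0.36, adjusted p = 0.000415, edgeR) and without library 35 (1.19, SE 0.21, adjusted p = 2.94e-05).

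Library 35 stood apart in other epithelial genes as well. It had the highest level of the 38 libraries for Epcam (3.42 log2 CPM), an adhesion protein of duct epithelium, for the tight junction gene Cldn7 (2.13), and for the epithelial transcription factors Klf5 (3.76) and Ehf (4.25), and the second highest for Krt7 (2.42). In contrast, it was the 15th highest for Krt8, the 18th for Spp1, the 21st for Krt18, and the 24th for Sox9. The library also held 385 counts of pancreatic acinar transcripts, as given above, and the part of these in its Krt19 level was not tested.

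**Figure D1:**
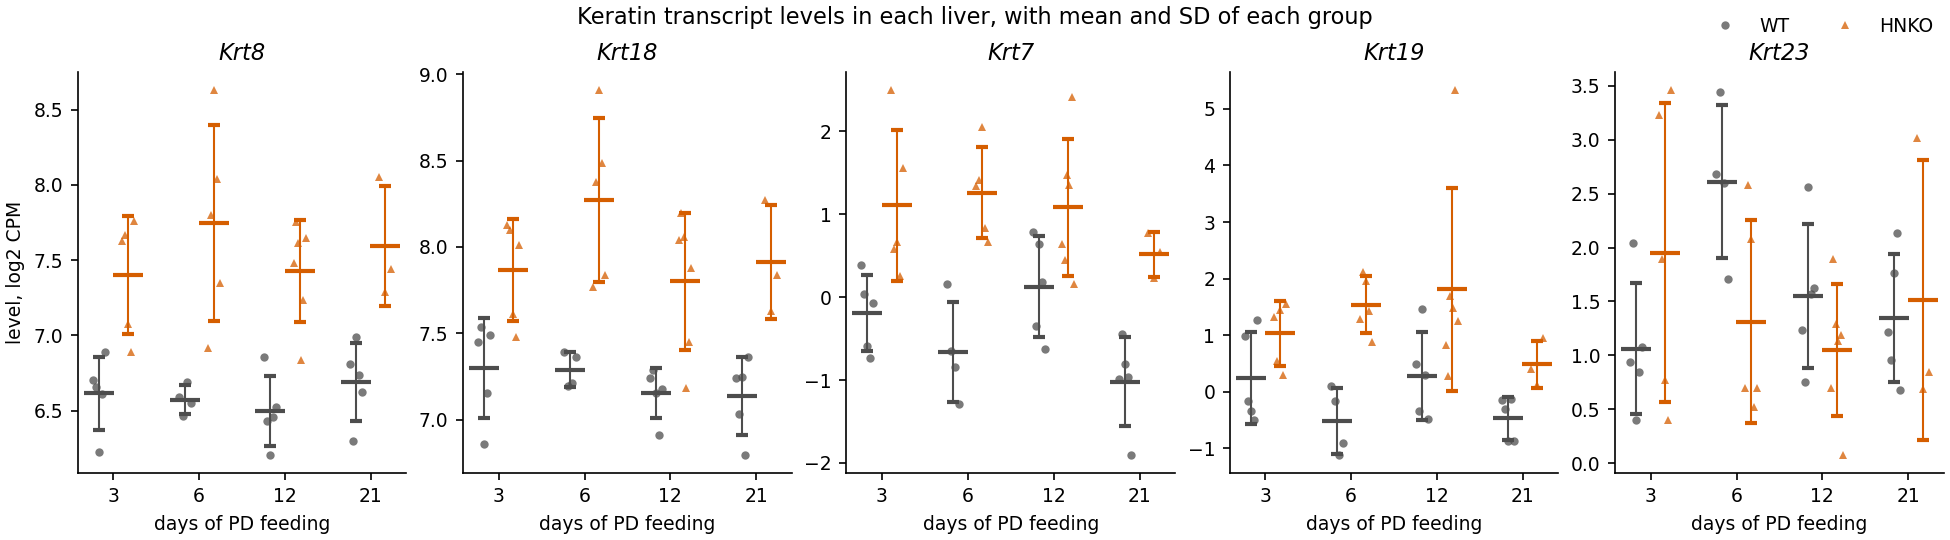
Transcript level (log2 CPM, vertical axis) of Krt8, Krt18, Krt7, Krt19, and Krt23 in each of 38 livers by days of PD feeding (horizontal axis), with WT as circles, HNKO as triangles, and bars for the mean and SD of each group. For the first 4 genes the HNKO livers lie above all WT livers at days 6 and 21, and the Krt19 value of 5.33 at day 12 is library 35.

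Krt23 behaved unlike the other tested members. At day 3, its level was 0.40, 0.85, 0.94, 1.08, and 2.04 log2 CPM in WT and 0.40, 0.77, 1.90, 3.22, and 3.46 in HNKO livers. At day 6, it was 1.71, 2.60, 2.68, and 3.45 in WT and 0.52, 0.69, 0.70, 2.08, and 2.58 in HNKO. The genotypes overlapped at both days, with the higher mean in HNKO at day 3 and in WT at day 6. At day 12, the WT livers had 0.75, 1.23, 1.57, 1.62, and 2.56, and the HNKO livers ranged from 0.08 to 1.89 (median 1.16). At day 21, the levels were 0.68, 0.96, 1.21, 1.76, and 2.14 in WT and 0.69, 0.84, and 3.01 in HNKO. Krt23 was called at no day. Its log2 fold changes in the order of days were 1.28, -1.16, -0.55, and 0.50, with standard errors of 0.53, 0.55, 0.51, and 0.60, and edgeR gave adjusted p of 0.155, 0.167, 0.540, and 0.724. In exact permutation tests, p was 0.270, 0.0794, 0.234, and 0.857. The value of day 21 rested on HNKO library 37 and was -0.68 without it.

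Krt20, the intestinal and urothelial keratin, had 21 counts over 9 of 19 HNKO libraries and 2 counts over 2 of 19 WT libraries. HNKO libraries 7 and 23 had 6 counts each, and no other library had more than 2. Since the gene did not pass the filter, it has no adjusted p in the main fit, and exact permutation tests of its level gave p of at least 0.0887 at the 4 days. A difference between genotypes was not detectable at this depth at any day. Without any filter on low counts, edgeR gave an average log2 fold change of 2.43 (adjusted p = 0.0202).

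The calls of the keratins are given beside the share of all tested genes called higher in HNKO, without a test of the difference. Of the 5 tested, 2 were called at day 3 (Krt7 and Krt8), where 2.95% of all tested genes were called higher, and 3 at day 6 (Krt7, Krt8, and Krt18), where it was 8.42%. At day 12, Krt8, Krt18, and Krt19 were called (background 4.56%), and at day 21 Krt8 and Krt18 (background 2.21%). On average over the days, 4 of 5 were called, with 19.2% of all genes called higher, and the log2 fold changes of Krt8, Krt18, and Krt7 were 0.99, 0.77, and 1.58, with standard errors of 0.11, 0.10, and 0.23 and edgeR adjusted p of 4.89e-08, 2.61e-07, and 2.17e-06. Krt23 was at 0.02 (SE 0.27, adjusted p = 0.966). Without libraries 11, 13, 23, and 35, the number called was 0 at day 3, 4 at day 6, 0 at day 12, 3 at day 21, and 4 on average. In that fit, 1.11%, 9.06%, 0.371%, 2.88%, and 17.4% of all 19947 tested genes were called higher at days 3, 6, 12, and 21 and on average, so that the calls over all genes also fell at days 3 and 12. The calls lost at day 3 were those of Krt8 (log2 fold change 0.73, adjusted p = 0.108, edgeR) and Krt7 (1.51, adjusted p = 0.0607). At day 12, Krt8 was then at 0.98 (adjusted p = 0.0684, edgeR), Krt18 at 0.67 (adjusted p = 0.128), and Krt19 at 0.72 (adjusted p = 0.433), so that the sizes for Krt8 and Krt18 were close to those with all 38 libraries. The 4 averages of Krt7, Krt8, Krt18, and Krt19 were called in all 38 fits that left out 1 library. Every HNKO liver was above every WT liver for 4 of the 5 keratins at days 6 and 21, compared with 8.08% and 7.25% of all tested genes, and for none of them at days 3 and 12 (2.31% and 2.65%). Libraries 1 to 21 hold all days, as do libraries 22 to 41. Within these 2 series of numbers, Krt7, Krt8, Krt18, and Krt19 had the higher mean in HNKO in 7 of 7 comparisons of 1 day, and Krt23 in 3 of 7 (log2 differences of -1.43 to 1.15). At day 21, the HNKO livers are all of the second series.

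**Figure D2:**
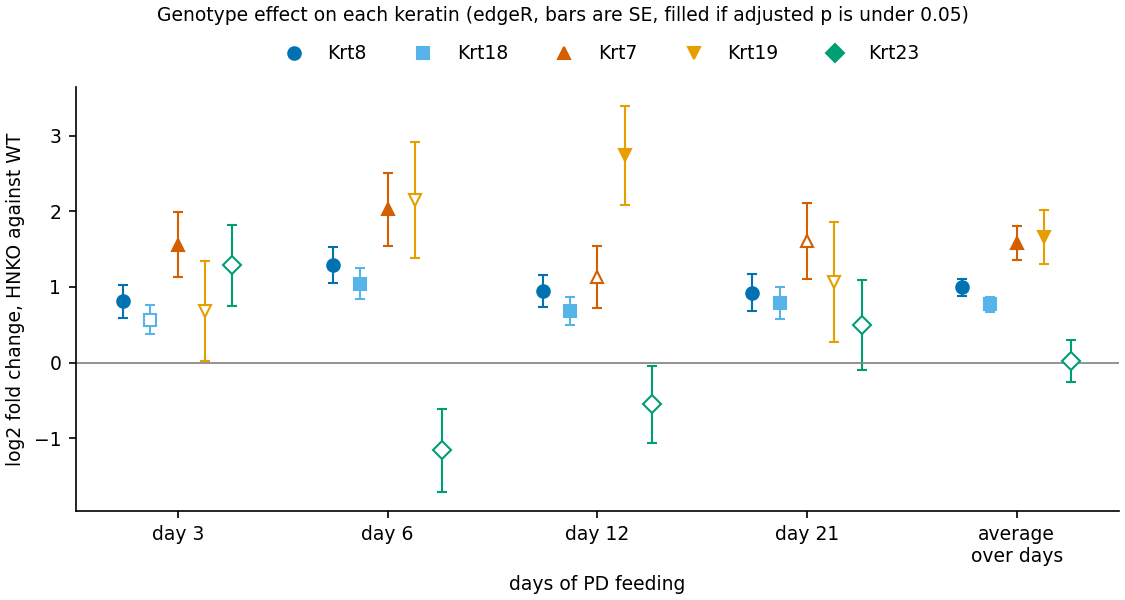
Log2 fold change between HNKO and WT (vertical axis) of 5 keratins at each day and on average over the days (horizontal axis), with SE as bars and filled symbols where the adjusted p is under 0.05 in edgeR. Krt8 and Krt18 stay between 0.57 and 1.29, Krt7 and Krt19 reach 2.02 and 2.74, and Krt23 falls on both sides of 0.

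The genotype effect was not shown to differ between days for any keratin. The interaction of genotype and day was called by edgeR for 0.0% of the tested genes, with 966 at an unadjusted p under 0.05. Krt23 had the smallest value among the keratins (unadjusted p = 0.0144, adjusted p = 0.996, edgeR), and without libraries 11, 13, 23, and 35 its unadjusted p was 0.0703. Within WT livers, no keratin was called for a change with the days of feeding, where 5.84% of all genes were, and Krt23 had the smallest p (adjusted p = 0.179, edgeR). Within HNKO livers (7.9% of all genes), Krt19 was called (adjusted p = 0.0251, edgeR), and this call was lost without libraries 11, 13, 23, and 35 (adjusted p = 0.330). Krt18 (adjusted p = 0.185), Krt23 (0.276), Krt8 (0.427), and Krt7 (0.565) did not pass the threshold.

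Ratios of counts within a library, which do not depend on how libraries are scaled, were used to set each duct keratin against the shared pair, taken as the geometric mean of Krt8 and Krt18. In all, 12 such comparisons of 1 day were made, of which 3 had an exact permutation p under 0.05, without adjustment for their number. The Krt7 ratio had a higher mean in HNKO at all 4 days, by 0.67, 0.93, 0.20, and 0.82 on the log2 scale in the order of days (exact permutation p = 0.0952, 0.0556, 0.721, and 0.107). The rise of Krt7 was therefore not shown to exceed that of the pair at any day. For Krt19, the ratio at day 6 ranged from -8.22 to -6.96 in WT and from -6.86 to -5.99 in HNKO livers, a difference of 1.06 with no overlap (exact permutation p = 0.00794). It differed by 0.14, 0.78, and 0.18 at days 3, 12, and 21 (exact permutation p = 0.746, 0.537, and 0.643). The difference of day 12 was 0.021 without library 35 and 0.0011 without libraries 11, 13, 23, and 35 (exact permutation p = 1.0 in the latter). The Krt23 ratio fell by 2.40 at day 6, from a WT mean of -4.33 ± 0.77 (SD, n = 4) to an HNKO mean of -6.73 ± 0.81 (SD, n = 5) (exact permutation p = 0.0159), and all HNKO livers were below all WT livers. At day 12 it fell by 1.30, with 4 of 6 HNKO livers below all WT livers (exact permutation p = 0.0130), and at days 3 and 21 it differed by 0.22 (p = 0.714) and -0.67 (p = 0.286). These 3 ratios kept an exact p under 0.05 in every test without 1 library of the day. Without libraries 11, 13, 23, and 35, the Krt23 ratio of day 12 differed by -1.29 with an exact permutation p of 0.0714 (3 HNKO livers left), and the Krt7 ratio of day 12 by -0.21 (p = 0.804).

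**Figure D3:**
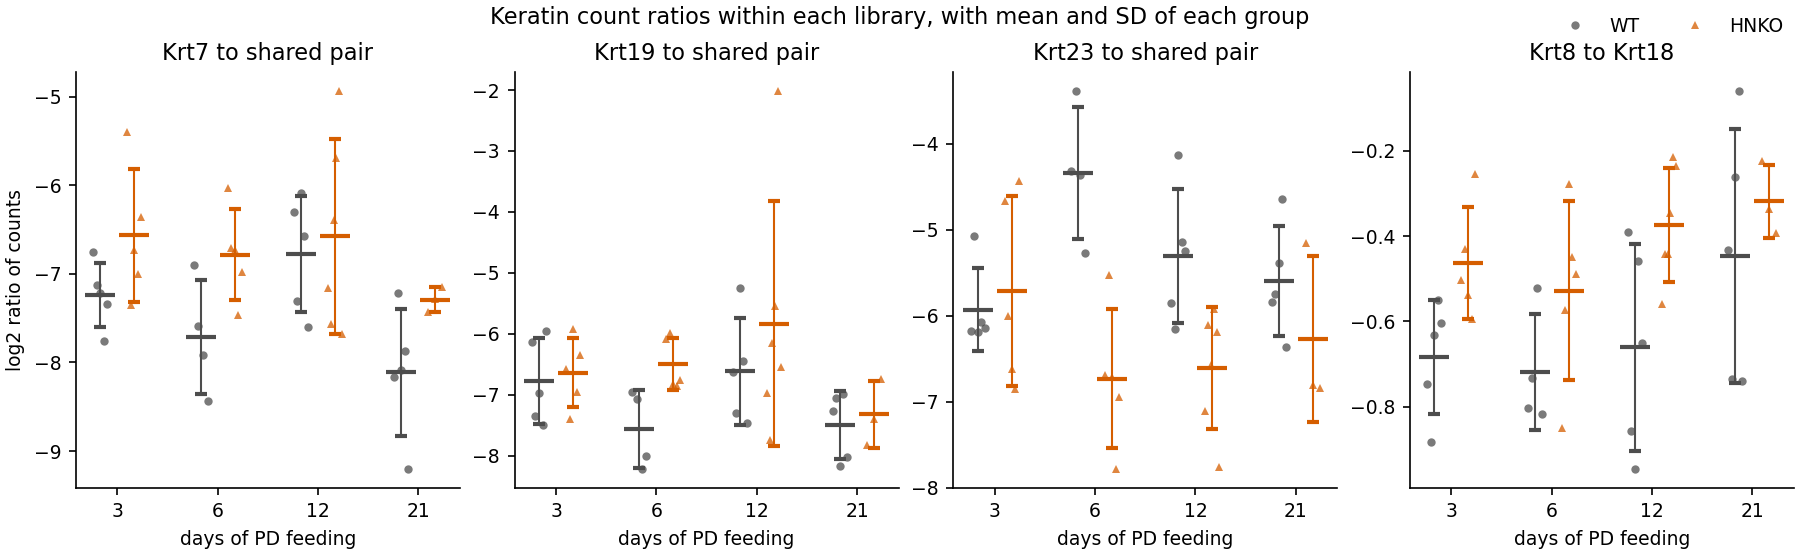
Log2 ratio of counts within each library (vertical axis) for Krt7, Krt19, and Krt23 against the geometric mean of Krt8 and Krt18, and for Krt8 against Krt18, by days of PD feeding (horizontal axis), with circles for WT, triangles for HNKO, and bars for mean and SD. The Krt19 ratios of day 6 are separate between genotypes with HNKO higher, and the Krt23 ratios of day 6 are separate with HNKO lower.

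Although Krt8 and Krt18 form 1 filament, the balance of their transcripts was not the same in both genotypes at days 3 and 12, by tests not adjusted for the 4 days. The log2 ratio of Krt8 to Krt18 counts at day 3 averaged -0.68 ± 0.13 (SD, n = 5) over WT and -0.46 ± 0.13 (SD, n = 5) over HNKO livers, a difference of 0.22 (exact permutation p = 0.0159). Day 12 gave -0.66 ± 0.24 (SD, n = 5) for WT and -0.37 ± 0.13 (SD, n = 6) for HNKO, a difference of 0.29 (exact permutation p = 0.0346). The differences of day 6 (0.19, exact permutation p = 0.159) and day 21 (0.13, p = 0.482) had the same sign and were within the spread between livers. Without WT library 15, 16, or 34 or HNKO library 32, 35, or 36, the p of day 12 was 0.0619 to 0.0762 (exact permutation test, difference of 0.22 to 0.29). Without libraries 11, 13, 23, and 35, the difference was 0.17 at day 3 (exact permutation p = 0.0476) and 0.32 at day 12 (p = 0.0893). The share of Krt8 stretches found in other transcripts, given above, bears on this ratio, and its part was not tested.

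Beyond genotype and day, some keratins varied together from liver to liver. Deviations of log2 CPM from the mean of each group were correlated for 10 pairs of genes over 38 livers, with 100000 permutations within groups. For Krt8 and Krt18, Pearson's r was 0.86 and Spearman's rho 0.80, both with the smallest p that the permutations can give (1e-05, adjusted p = 5e-05 for r and 0.0001 for rho). Without the 2 livers farthest from the median, r was 0.81, and within the 2 series of libraries it was 0.86 and 0.90. For Krt7 and Krt19, r was 0.71 (p = 1e-05, adjusted p = 5e-05) and rho 0.72 (p = 2e-05, adjusted p = 0.0001), with r of 0.66 without the 2 farthest livers and 0.55 and 0.81 within the series. With all 40 libraries, the relation of Krt7 and Krt19 was not called by r (0.11, adjusted p = 0.558) and was weaker by rho (0.40, p = 0.0183, adjusted p = 0.0457), with r of 0.47 without the 2 farthest livers, libraries 17 and 35. Without libraries 11, 13, 23, and 35, r was 0.87 for Krt8 and Krt18 (adjusted p = 0.0003) and 0.64 for Krt7 and Krt19 (adjusted p = 0.0011), over 34 livers. Across these pairs, no relation was shown. The r values between Krt7 or Krt19 and Krt8 or Krt18 ranged from -0.08 (adjusted p = 0.841) to 0.19 (adjusted p = 0.438). Krt23 was related to Krt7 (r = 0.56, p = 0.00108, adjusted p = 0.0036, with rho = 0.59, p = 0.00061, adjusted p = 0.00203). Its r with Krt7 was 0.55 without the 2 farthest livers and 0.40 and 0.73 within the series. Krt23 was also related to Krt8 by r (0.48, p = 0.0158, adjusted p = 0.0396) but not by rho after adjustment (0.45, p = 0.021, adjusted p = 0.0524), with r of 0.45 without the 2 farthest livers and 0.48 and 0.63 within the series, and this was not called without libraries 11, 13, 23, and 35 (r = 0.45, adjusted p = 0.0783). In livers of 1 genotype, r between Krt8 and Krt18 was 0.95 in HNKO and 0.49 in WT, and between Krt7 and Krt19 0.71 and 0.72.

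**Figure D4:**
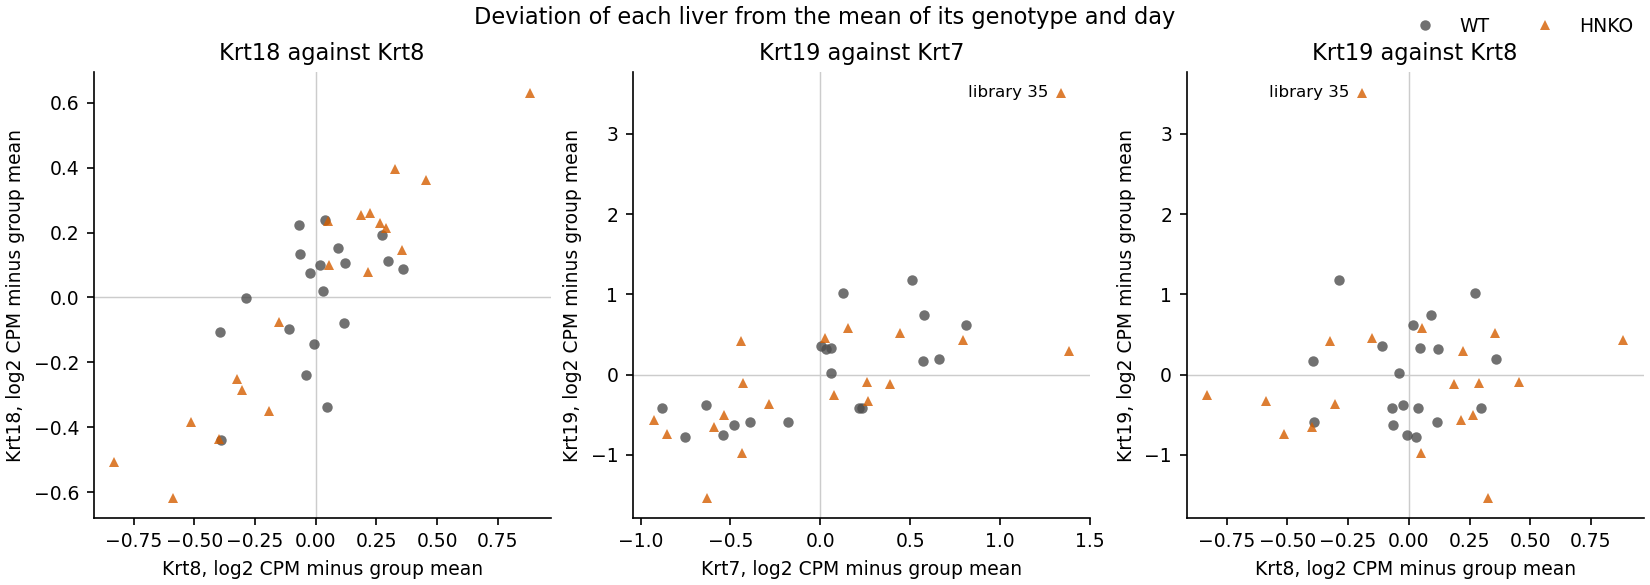
Deviation of each of 38 livers from the mean of its genotype and day in log2 CPM, for Krt18 against Krt8, Krt19 against Krt7, and Krt19 against Krt8 (circles WT, triangles HNKO). The points follow a rising line in the first panel (r = 0.86) and the second (r = 0.71) and show no relation in the third (r = 0.02), in which library 35 lies far above the other livers.

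Genes whose levels followed those of a keratin most closely were taken by Pearson's r of log2 CPM over the same 38 livers, which includes the difference between genotypes. For Krt7, they were Ezr (r = 0.90), Bcam (0.89), and Ehf (0.87), and for Krt19 Cd24a (0.88), Flrt3 (0.88, and 0.77 without library 35), and Ehf (0.87). Ezr links the membrane to actin in epithelial cells, and Ehf is an epithelial transcription factor. For Krt8, the closest genes were Mmp12 (0.92), a protease of macrophages, Sh3pxd2b (0.92), and Spp1 (0.92), which encodes osteopontin, and for Krt18 Myo1f (0.91), Tgm2 (0.91), and Cyth4 (0.90), of which Myo1f and Cyth4 are known from blood cells. Krt23 had no gene with r above its 0.65 with Ten1, followed by Idh2 (0.59) and Osbpl5 (0.59).

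Transcripts of other keratins were few in these livers. The table lists 48 further genes named Krt with a number, of which 21 had 0 counts and 24 had 1 to 100 counts in the 38 libraries, and the 6 members held 99.3% of all keratin counts. Of the 3 genes that passed the filter, Krt80, a type II keratin of epithelia, was higher in HNKO at day 6 (log2 fold change 2.45, adjusted p = 0.0034, edgeR) and day 12 (1.80, adjusted p = 0.0293). Krt10, a keratin of the epidermis, was lower at day 6 (-0.59, adjusted p = 0.0473, edgeR, where 4.37% of genes were called lower). Among plakins and desmosome genes, which tie keratin filaments to the membrane, 7 of 13 were called higher on average over the days (19.2% of all genes) and 0 lower, with a median log2 fold change of 0.29 against -0.01 over all tested genes. Eppk1, epiplakin, which binds keratins, was called at all 4 days (0.65, 0.76, 0.70, and 0.73), and Evpl, envoplakin, at days 3, 12, and 21 (1.20, 1.49, and 1.27). Of the other intermediate filament genes, 9 of 13 passed the filter and 4 were called higher on average, again beside 19.2% of all genes. Vim, the filament of mesenchymal cells, was called at days 6, 12, and 21 (1.55, 0.82, and 1.06), and Lmna, a lamin of the nuclear envelope, at days 3 and 6 (0.58 and 0.42). Of 5 other components of Mallory-Denk bodies, which are aggregates of Krt8 and Krt18 in injured hepatocytes, only Tgm2, a transglutaminase, was called, at days 3, 6, and 12 (0.69, 1.22, and 0.66), when 2.95%, 8.42%, and 4.56% of all tested genes were called higher. Sqstm1, Hspb1, and Ubb were called at no day, and their averages lay between -0.03 and 0.16. Without libraries 11, 13, 23, and 35, no gene of these lists was called at day 12, Eppk1, Evpl, and Tgm2 also missed the threshold at day 3 (adjusted p = 0.0501, 0.0811, and 0.120, edgeR), and 7 plakin and desmosome genes, 3 other filament genes, and 1 of 5 Mallory-Denk body components were called higher on average, beside 17.4% of all genes.

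The keratins were set beside markers of the cell types that a piece of liver could hold. Of 10 cholangiocyte markers, 9 passed the filter, and 7, 7, 6, and 6 of them were called higher at days 3, 6, 12, and 21 (2.95%, 8.42%, 4.56%, and 2.21% of all genes), with a median log2 fold change of 1.40, 1.80, 1.73, and 1.82, where the median of all tested genes was -0.01 to 0.01. Cftr, a chloride channel of duct cells, was called at every day (2.57 to 3.59), as was Cldn4 (2.82 to 4.12). The sum of the 10 markers, in which the most abundant ones weigh most, was 93.4 to 123 CPM in WT and 188 to 844 CPM in HNKO libraries. Among 8 transcription factors of duct epithelium, 6 were called higher on average (19.2% of all genes), and Sox4 was called at all 4 days (1.94, 1.41, 1.19, and 1.48) and Elf3 at days 3, 6, and 12 (2.54, 3.57, and 3.23). Of 7 mesothelial markers, cells that also carry Krt19, only Muc16 was called, and only at day 6 (2.98, adjusted p = 0.0432, edgeR, with 8.42% of all genes called higher). The median log2 fold change of this list at day 6 was 1.6, and its sum was 0.421 to 4.26 CPM in the WT and 2.79 to 12.3 CPM in the HNKO libraries of that day. Of 7 hepatocyte markers, Alb and Ttr were lower at day 6 (-0.67 and -0.64) and on average (-0.46 and -0.40), where 17.3% of all genes were called lower, and the other 5 were not called. Their sum was 101355 to 157903 CPM in WT and 66676 to 132969 CPM in HNKO libraries. Of 6 pancreatic acinar markers, 3 passed the filter, of which Ctrb1 was called higher at day 12 (8.97, adjusted p = 0.0252, edgeR), with its counts in few libraries, and Cela1 lower on average (-0.49, adjusted p = 0.0206). Of 6 intestinal markers, 3 passed the filter, of which Cdh17 was higher at days 3 and 6 (3.48 and 4.01) and Fabp2 lower (-0.78 and -0.67), and the defining gene Cdx1 had 0 counts. Krt5, Krt14, Trp63, Dsg3, and Lor, which mark squamous epithelium, did not pass the filter and summed to at most 0.341 CPM in any library. The part of any of these cell types in the keratin differences was not tested. Without libraries 11, 13, 23, and 35, 6, 7, 2, and 6 of 8 tested cholangiocyte markers were called higher at days 3, 6, 12, and 21, and 2, 4, 0, and 2 of the 8 transcription factors, where the shares of all genes were 1.11%, 9.06%, 0.371%, and 2.88%. In the same fit, Cdh17 missed the threshold at day 3 with 2.85 (adjusted p = 0.174, edgeR), and the average log2 fold changes of Krt8, Krt18, Krt7, and Krt19 were 0.99, 0.77, 1.44, and 1.13, with edgeR adjusted p of 7.63e-07, 2.63e-06, 1.75e-05, and 0.000195.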

How the data were processed

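The authors prepared rRNA-depleted stranded libraries from total liver RNA, sequenced 51-bp paired ends, aligned with STAR 2.7.2b to GRCm38, assigned fragments with featureCounts 1.6.4 to the genes of GENCODE M22, and deposited the raw gene counts of all libraries in 1 table. The use of the strand in counting is not given in the sources used here. The 40 columns were matched to samples by library number, and gene symbols were matched by identifier for 55394 of 55487 genes. Positions, exon lengths, and sequences were taken from GENCODE M21.

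Counts of 38 libraries were filtered (minimum count 10, minimum total count 15, minimum proportion 0.7), scaled by TMM, and fitted with edgeR 4.0.16 in R 4.3.3 (quasi-likelihood, legacy computation) with 1 mean per genotype and day. Standard errors are those that the test statistic implies. The average over days is the mean of the 4 HNKO minus the mean of the 4 WT groups. Ratios used a prior count of 0.5. Permutation tests were two-sided and exact, except for the correlations, and were computed with numpy 2.4.6. The number of mice and the low counts of Krt7, Krt19, and Krt23 limit precision. No library matched another of its group within sampling noise (81 pairs, chi-square per gene at least 14.0). Livers were the units of all tests. The edgeR tests used a spread estimated over all groups together, with information shared between genes.

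The named genes are the 6 keratins, Nampt, list members called at 2 or more days or defining a cell type, and the 3 genes most like each keratin. Beyond this rule, Krt10, Muc16, Ctrb1, Alb, Ttr, Sqstm1, Hspb1, Ubb, and the genes of library 35 were named after their values were seen. A few items of the lists and sequences are not reported here. The members and lists were chosen with earlier results of these data known. Alternatives were other size factors, DESeq2 1.42.0, no filter or a stricter one, all 40 libraries, fits of 1 day, the edgeR 4 computation, robust estimation, the series of library numbers as a covariate, other prior counts and references of the ratios, and leaving out each library. Leaving out libraries 11, 13, 23, and 35 together in all fits, ratios, and correlations, leaving out library 35 from the correlations, and the alternatives of the interaction were added after seeing the data.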

Additional observations from a re-analysis of the deposited data

Results flagged for a closer look

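The Krt19 level of HNKO library 35 at day 12, 5.33 log2 CPM, was farther from the other livers of its group (0.28 to 1.70) than Dixon's 95% limit allows. Of the 35 groups tested for the other 5 keratins, this was the only one past the limit, where chance gives about 1 in 20. For Krt20, 4 of 7 groups were past it because 1 library held all the counts of its group, with a count of 6 in library 23 (HNKO, day 3), 6 in library 7 (HNKO, day 6), 1 in library 8 (WT, day 6), and 1 in library 16 (WT, day 12).

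The 2 libraries described as having failed quality control were outside the comparisons. In library 18 (HNKO, day 21), all 5 tested keratins were above every WT liver of that day, with 0.54 log2 CPM for Krt7, 7.48 for Krt8, 7.68 for Krt18, 1.12 for Krt19, and 2.35 for Krt23 on the scale of all 40 libraries. Library 17 of the same group was above the WT livers for Krt19, with 3.35, and had 0 counts for Krt7 and Krt23. The share of all tested genes above the WT livers in libraries 17 and 18 was not computed. The keratin values of both are therefore without a background.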

How the results depend on the processing

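The average effects of Krt7, Krt8, Krt18, and Krt19 kept their direction and their call under every alternative that could be fitted. Krt7 and Krt19 did not pass the strict filter, 10 counts or more in each library. The average of Krt23, 0.02, changed sign to -0.036 with all 40 libraries and to -0.057 without libraries 11, 13, 23, and 35, and with 1 library left out it ranged from -0.27 to 0.13. The number of keratins called higher at day 3 (2) was 1 with the stricter filter, 0 with all 40 libraries, 1 in a fit of 1 day, and 0 without libraries 11, 13, 23, and 35. Without these 4 libraries it was 0 at day 12 (3 with them), and with all 40 libraries it was 1 at day 21 (2 without libraries 17 and 18). Over all genes, 945 of 20297 were called in either direction at day 3 in the main fit. The 4 alternatives of day 3, in the order above, called 788 of 14136, 331 of 19981, 420 of 17364, and 302 of 19947. At day 12, the calls fell from 1588 to 98 without the 4 libraries. At day 21, they rose from 634 to 1350 with all 40 libraries. With 1 library left out, the number called ranged from 0 to 3 at day 3 and from 0 to 2 at day 21, and the number of days on which the Krt8 to Krt18 ratio differed at an exact p under 0.05 from 1 to 2. Over all genes, fits without 1 library called 322 to 1668 in either direction at day 3. At day 21, they called as few as 13 of 20737, without HNKO library 37. Also with 1 library left out, the Krt23 log2 fold change of day 21 ranged from -0.68 to 0.89. The ratios to the pair ranged from -0.042 to 0.34 for Krt19 and from -0.10 to 0.50 for Krt23 at day 3, from -0.13 to 0.42 for Krt7 and from 0.021 to 1.17 for Krt19 at day 12, and from -0.11 to 0.43 for Krt19 at day 21. With all 40 libraries, r was -0.16 for Krt8 and Krt19 and -0.14 for Krt19 and Krt23, and that of Krt7 and Krt19 was 0.11 (adjusted p = 0.558). For Krt18 and Krt19, r was 0.15 without library 35 and 0.12 without libraries 11, 13, 23, and 35, and without these 4 the Krt7 ratio of day 12 was -0.21. The cause of these changes was not tested, except that fewer libraries or genes enter some fits. No paired analysis was possible because the library numbers are unique and the labels give no pairs. Depth limits Krt20 most, and Krt7 and Krt19 in WT livers, where libraries held as few as 5 and 8 counts.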
